A study of Mus musculus with 25 samples.

Results

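The 39 protein-coding Hox genes of the mouse were followed in ribosome-bound RNA of adult spinal cord cholinergic neurons. They were chosen by symbol alone, as every *Hoxa*, *Hoxb*, *Hoxc* or *Hoxd* gene with a paralog number, and made up 39 of the 50559 genes counted. In the 24 immunoprecipitates 36 of them reached 10 summed counts and were tested, 29 had a mean of at least 1 CPM (a gene's counts scaled to a fixed total per library), and 17 had a mean of at least 10 CPM. The members between 10 counts and 1 CPM included *Hoxa2*, *Hoxc12*, *Hoxc13*, *Hoxd1*, *Hoxd4* and *Hoxd13*, and those under 10 counts were *Hoxa13*, *Hoxb1* and *Hoxd12*.

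Hox genes code for homeodomain transcription factors. They lie in 4 clusters, and within each cluster the genes with low paralog numbers are read at anterior levels of the body axis and those with high numbers at progressively posterior levels. In the embryonic spinal cord they divide motor neurons by level: Hox4 to Hox8 proteins act at cervical and brachial levels, where *Hoxc6* marks the limb-innervating column and Hox5 proteins the phrenic neurons, *Hoxc9* sets the thoracic level, and Hox10 and Hox11 proteins act at lumbar levels. Hox1 to Hox3 proteins pattern mainly the hindbrain, and Hox13 proteins the end of the axis. PBX and MEIS proteins, of the TALE homeodomain class, bind DNA together with them.

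Control mice were *ChAT-Cre;RiboTag fx/+* (called WT in the sample labels), and *ChAT-BKO* mice carried *Bmal1 fx/fx* in addition, so that both genotypes carried the Cre and the tagged ribosomal protein, and *Bmal1* was removed in ChAT-Cre cells alone. All were male and 6 mo old, and tissue was taken at ZT8 or ZT20 (8 or 20 h after lights on), which gave 4 groups of 6 mice with 1 whole spinal cord each. ChAT-Cre marks all cholinergic neurons of the cord, somatic and visceral motor neurons as well as cholinergic interneurons, and a whole cord mixes its levels, so a level below is an average over them. A single library of pooled input, from both genotypes, is the only measure of the whole tissue. In bulk RNA, fewer cells that express a gene and less RNA of it per cell cannot be told apart.

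Depth was 4.04 to 31.7 M counts per immunoprecipitate and 7.40 M for the input. A count of 0 allows up to 3 counts, or 0.0948 to 0.734 CPM depending on the library. *Bmal1* (listed as *Arntl*) was lower in *ChAT-BKO* at both times, by 1.64 on the log2 scale at ZT8 (SE 0.16, adjusted p = 1.56e-05, edgeR) and by 2.08 at ZT20 (SE 0.16, adjusted p = 1.99e-07). The 7 cholinergic marker genes were all above the input, with a median log2 ratio of 2.37, while the markers of inhibitory neurons (median −1.72), excitatory neurons (−2.56), oligodendrocytes (−3.64), astrocytes (−4.44), microglia (−4.31), endothelium (−4.02) and skeletal muscle (−2.75) were all below it. Nearest to it was the inhibitory marker *Gad1* (−0.39), by less than the shift of 0.45 between the 2 scalings given below. Markers of other cells were still counted in the immunoprecipitates, such as *Slc6a5* (116 ± 12.6 CPM), *Slc32a1* (80.2 ± 7.97 CPM) and *Slc17a6* (45.3 ± 5.02 CPM). A Hox level below may therefore include RNA from other cells, and the part of such RNA was not tested.

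The clusters have the usual mouse layout. In GRCm38 coordinates *Hoxa* spans chr6:52155590-52260880 on the minus strand (11 genes), *Hoxb* chr11:96194316-96368256 (10 genes), *Hoxc* chr15:102921103-103036852 (9 genes) and *Hoxd* chr2:74668310-74765142 (9 genes), the last 3 on the plus strand. Because the genes are packed, 9 members share exon bases with another gene on the same strand: *Hoxd3* and *Hoxd4* share most, and *Hoxc5* and *Hoxc10* share 166 bases. A further source of uncertain counts is antisense transcription, since exons of 10 members overlap an antisense gene; the kit marks strand, but the strand setting used in counting is not given in the sources used here.

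The homeobox, the 180 coding bases of the DNA-binding domain, was found once in each of the 39 main transcripts (GENCODE M21). Its last 60 bases are shown for members of at least 1 CPM that had the highest level per length at their paralog number. They are ordered from anterior to posterior. Capitals mark the 18 bases that code for the conserved core of the recognition helix. Each homeobox was located by the amino acids of this core, so their presence was set by the search. The bases of the core differ between members, and those after it are the same in *Hoxb7* and *Hoxc8*.
Hoxb2: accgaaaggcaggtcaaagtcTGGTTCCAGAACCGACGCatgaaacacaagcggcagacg
Hoxc4: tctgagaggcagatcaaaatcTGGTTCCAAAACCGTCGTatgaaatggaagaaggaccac
Hoxb6: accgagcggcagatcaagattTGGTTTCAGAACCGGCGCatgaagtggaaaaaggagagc
Hoxb7: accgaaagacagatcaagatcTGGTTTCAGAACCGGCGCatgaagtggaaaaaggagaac
Hoxc8: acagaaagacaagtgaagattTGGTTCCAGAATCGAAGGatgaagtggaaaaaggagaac
Hoxc10: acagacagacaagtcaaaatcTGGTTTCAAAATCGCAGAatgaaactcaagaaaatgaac
Hoxd11: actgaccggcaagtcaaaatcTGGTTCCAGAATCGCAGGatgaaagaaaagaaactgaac
Hoxb13: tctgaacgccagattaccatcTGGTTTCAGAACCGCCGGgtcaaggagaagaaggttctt

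Across the whole homeobox, members with the same paralog number shared a median of 80.6% of bases over 42 pairs, with *Hoxa3* and *Hoxb3* closest at 93.9%. Members that differ by 1 in paralog number shared a median of 70.6% (104 pairs), and those further apart 59.4% (595 pairs). Genes of the same cluster shared 61.7%. The longest run of identical bases between any pair was 52, which is shorter than a read.

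Levels formed a peak over the middle of the clusters. Per kilobase of the main transcript, summed over clusters, paralogs 4 to 8 held 71.6% of the Hox signal (68.7 to 73.7% over the 24 libraries), paralog 9 held 12.1%, paralogs 10 to 13 held 13.2% and paralogs 1 to 3 only 3.12%. Paralog 8 alone held 27.5%. By cluster, *Hoxb* held 39.2%, *Hoxc* 33.7%, *Hoxa* 15.5% and *Hoxd* 11.6%, and these shares moved by a few percentage points between libraries (*Hoxb* 36.2 to 42.6%, *Hoxd* 10.6 to 12.6%).

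**Figure D1:**
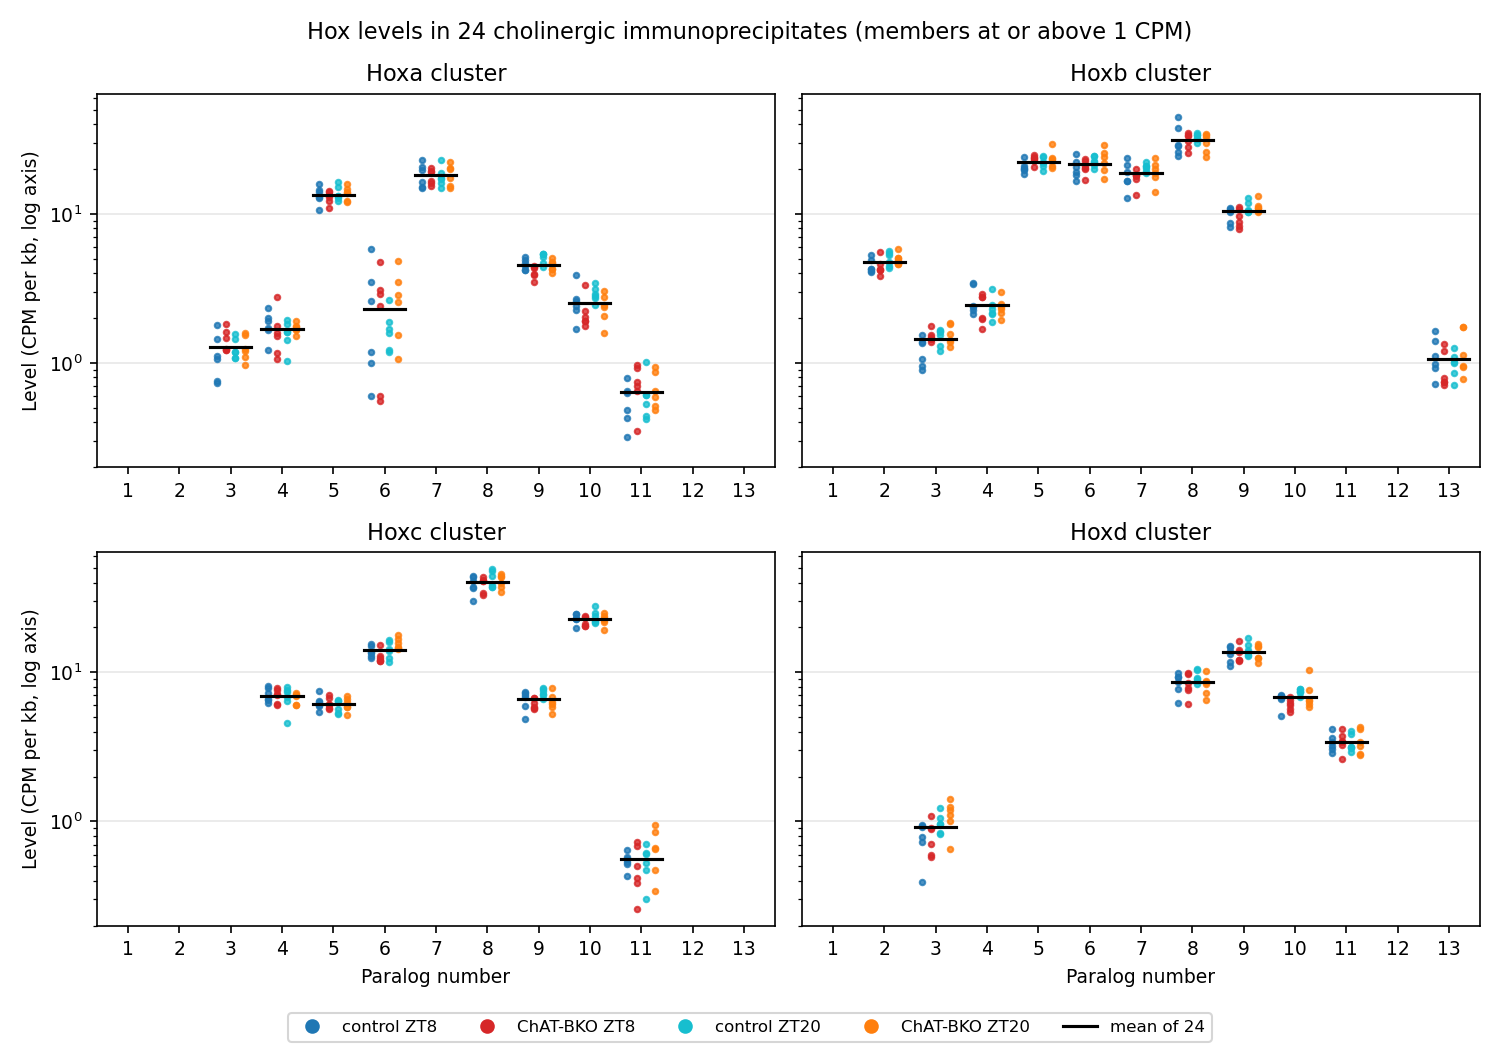
Level of the 29 Hox members with a mean of at least 1 CPM, in CPM per kb of transcript on a log axis, against paralog number, with 1 panel per cluster. Points are the 24 libraries by group and black bars their mean. The colours lie on top of each other, levels are highest at paralogs 5 to 8 and 10, *Hoxa6* is spread most, and *Hoxc8* (40.3 CPM per kb) is at the top.

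The highest members were at paralog 8. *Hoxc8*, which specifies motor pools of the brachial cord, had 40.3 ± 4.80 CPM per kb (SD, n = 24), with libraries from 30.3 to 49.3. *Hoxb8* followed with 31.4 ± 4.61 (24.2 to 44.2). *Hoxc8* was above *Hoxb8* in 23 of 24 libraries, but with the union of all annotated exons as length *Hoxc8* fell to 26.6 and *Hoxb8* was first, so their order depends on the transcript model. Without length, *Hoxb8* had 82.6 ± 12.2 CPM and *Hoxc8* 75.2 ± 8.97 CPM. *Hoxb8* was below the input (log2 ratio −1.53) and *Hoxc8* near it (0.03), and the part of other cells in either level was not tested.

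Below *Hoxc8* and *Hoxb8* came a group of 5 between 18.1 and 22.8 CPM per kb. *Hoxc10*, a lumbar gene, had 22.8 ± 1.88 (19.3 to 27.6), *Hoxb5* 22.3 ± 2.40 (18.4 to 29.5) and *Hoxb6* 21.6 ± 3.01 (16.5 to 28.9). *Hoxb7* had 18.8 ± 2.87 and *Hoxa7* 18.1 ± 2.68. Within this group the ranges of neighbours overlapped and their means were closer than the sum of their SDs. Within single libraries, *Hoxc10* was above *Hoxb5* in 12 of 24, *Hoxb5* above *Hoxb6* in 17, *Hoxb6* above *Hoxb7* in 23 and *Hoxb7* above *Hoxa7* in 14. *Hoxb8* was above *Hoxc10* in 24 of 24.

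The next step held *Hoxc6*, the brachial column gene, at 14.1 ± 1.71 CPM per kb, *Hoxd9* at 13.7 ± 1.55, *Hoxa5* at 13.5 ± 1.45 and *Hoxb9* at 10.4 ± 1.31. *Hoxd8* (8.60 ± 1.25), *Hoxc4* (6.89 ± 0.811), *Hoxd10* (6.81 ± 1.04), the thoracic gene *Hoxc9* (6.60 ± 0.807) and *Hoxc5* (6.14 ± 0.587) came after. *Hoxc4*, *Hoxd10*, *Hoxc9* and *Hoxc5* could not be ordered by their spread. Of all 28 neighbouring pairs among the 29 members, 24 had means closer than the sum of their SDs.

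Among the lower members, *Hoxb2* was the highest gene of paralogs 1 to 3, at 4.73 ± 0.556 CPM per kb (2.21 with the union length). *Hoxa9* had 4.56 ± 0.506, *Hoxd11* 3.42 ± 0.494, *Hoxa10* 2.52 ± 0.589, *Hoxb4* 2.43 ± 0.467, *Hoxa6* 2.31 ± 1.42 and *Hoxa4* 1.68 ± 0.380. *Hoxb3* (1.44 ± 0.245), *Hoxa3* (1.28 ± 0.285), *Hoxb13* (1.06 ± 0.317), *Hoxd3* (0.914 ± 0.239), *Hoxa11* (0.637 ± 0.199) and *Hoxc11* (0.558 ± 0.165) closed the list. *Hoxd11* was the most dependent on length, at 0.901 with the union of exons. With that length *Hoxc6* had 9.26, *Hoxa9* 2.64 and *Hoxa3* 0.549 CPM per kb.

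Several genes at the ends of the clusters were at or near the floor. *Hoxd1* had 0.223 ± 0.145 CPM and was at 0 in 2 libraries. *Hoxb1*, which in the embryo specifies a single hindbrain segment, gave 4 counts in all 24 libraries together. At the other end *Hoxa13* gave 5 counts, *Hoxd12* 3 and *Hoxd13* 10, and *Hoxc12* was at 0 in 7 libraries. Of the Hox13 genes, *Hoxb13* (2.35 ± 0.700 CPM, 1.57 to 3.85) was present in every library and *Hoxc13* (0.704 ± 0.284 CPM, 0.193 to 1.38) likewise, so the terminal genes of *Hoxb* and *Hoxc* were read while those of *Hoxa* and *Hoxd* were not detectable at this depth in most libraries (0 in 19 and 16 of 24).

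Members of 1 paralog number were not used alike in the 4 clusters. At paralog 6, *Hoxb6* and *Hoxc6* had 21.6 and 14.1 CPM per kb and *Hoxa6* 2.31. At paralog 10, *Hoxc10* had 22.8, *Hoxd10* 6.81 and *Hoxa10* 2.52. At paralog 9 the 4 genes were closer, from *Hoxd9* at 13.7 to *Hoxa9* at 4.56, and at paralog 4 *Hoxc4* led with 6.89 over *Hoxb4* (2.43), *Hoxa4* (1.68) and *Hoxd4* (0.295).

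The comparison with the pooled input asked which members were richer in ribosome-bound RNA of cholinergic cells than in the whole cord. All Hox genes together took 0.0594% of counts in the immunoprecipitates (0.0511 to 0.0658%) and 0.0999% in the input. The log2 ratio of the mean of 24 libraries to the input was positive for 7 of the 33 members with at least 10 input counts (21.2%), beside 32.9% of all 14941 genes, and its median was −0.64 beside −0.54 for all genes. With a scaling factor estimated across input and immunoprecipitates together, the median of all genes rose by 0.45 to −0.085 and 13 of 33 members were above the input. Under both scalings 14 of the 33 were above the median of all genes. The input is 1 library, so the 95% intervals given here, from its Poisson count alone, cover counting error only, and no test was made.

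**Figure D2:**
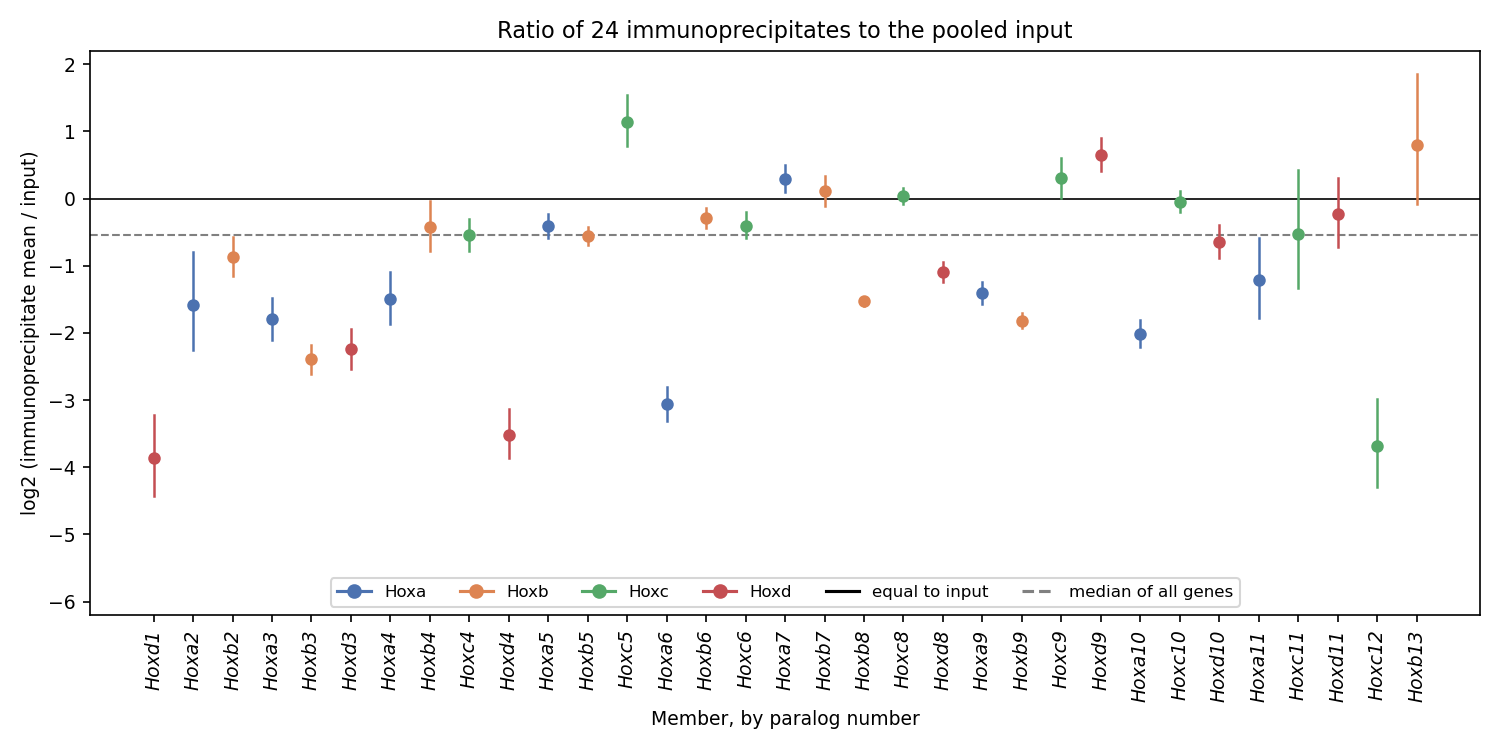
Log2 ratio of the mean of 24 immunoprecipitates to the pooled input for the 33 members with at least 10 input counts, ordered by paralog number and coloured by cluster. Bars are 95% Poisson intervals of the input count, the solid line is equality and the dashed line the median of all genes (−0.54). *Hoxc5* is highest at 1.15 and *Hoxd1* lowest at −3.86.

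The most enriched member was *Hoxc5*, of the phrenic paralog group, with 18.0 ± 1.72 CPM against 8.11 in the input (60 counts), a log2 ratio of 1.15 (95% interval 0.78 to 1.54). *Hoxd9* had 29.2 ± 3.31 against 18.7 CPM, a log2 ratio of 0.64 (0.40 to 0.90). All 24 libraries lay above the upper bound of the input for both genes, and for no other member. *Hoxc5* shares bases with an exon of *Hoxc10*, whose own log2 ratio was −0.05 (−0.21 to 0.11).

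*Hoxa7* (log2 ratio 0.29, 0.10 to 0.49) was above the input value in 24 of 24 libraries and *Hoxc9* (0.30, 0.01 to 0.61) in 22. *Hoxb13* had 0.80 on an input of only 10 counts (−0.08 to 1.86) and was above the input value in 24 of 24. *Hoxb7* (0.11, −0.11 to 0.34) and *Hoxc8* (0.03, −0.09 to 0.16) could not be told from it. These 7 members were above equality under both scalings. *Hoxa5*, *Hoxb4*, *Hoxb6*, *Hoxc6*, *Hoxc10* and *Hoxd11* were below it here, with log2 ratios from −0.43 (*Hoxb4*) to −0.05 (*Hoxc10*), and above it under the joint scaling, so no direction is given for them.

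At the other end, *Hoxd1* (−3.86, −4.44 to −3.22), *Hoxc12* (−3.68, −4.29 to −2.99), *Hoxd4* (−3.52, −3.87 to −3.14) and *Hoxa6* (−3.06, −3.32 to −2.80) had the lowest ratios. *Hoxb3* (−2.40), *Hoxd3* (−2.24), *Hoxa10* (−2.02), *Hoxb9* (−1.82), *Hoxa3* (−1.79), *Hoxb8* (−1.53), *Hoxa4* (−1.50) and *Hoxa9* (−1.41) were also below the input in 24 of 24 libraries, and their mean ratio was below it under both scalings. *Hoxb8*, the member with most counts in the input (1765), had 239 CPM there against 82.6, while *Hoxc8* of the same paralog number had 73.4 against 75.2. Their log2 ratios were −1.53 (−1.60 to −1.46) and 0.03, with intervals that did not overlap.

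By position, none of the 6 measured members of paralogs 1 to 3 was above the input (median log2 ratio −2.02), and 4 of 15 were at paralogs 4 to 8 (−0.43), 2 of 4 at paralog 9 (−0.55) and 1 of 8 at paralogs 10 to 13 (−0.58). Under the joint scaling these counts were 0 of 6, 8 of 15, 2 of 4 and 3 of 8. By cluster the medians were −0.23 for *Hoxc*, −0.56 for *Hoxb*, −1.10 for *Hoxd* and −1.50 for *Hoxa*. The *Hoxc* share of the summed level per kb was 33.7% in the immunoprecipitates (31.6 to 35.9%) and 22.3% in the input, and that of *Hoxb* was 39.2% against 48.1%. Along the axis, the log2 ratio of paralogs 10 to 13 over 4 to 8 was −2.44 ± 0.118 (SD, n = 24) in the immunoprecipitates and −2.55 in the input, inside the range of the libraries (−2.64 to −2.15). Other shares lay outside it: paralogs 1 to 3 held 3.12% of the Hox signal (2.49 to 3.71%) against 6.10% in the input, and paralog 7 held 12.7% (10.5 to 14.3%) against 6.92%.

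The groups were then compared for an effect of *Bmal1* loss and of time of day. Hox levels differed little between the 4 groups. Their share of all counts was 0.0579 ± 0.0054% in controls and 0.0575 ± 0.0022% in *ChAT-BKO* at ZT8, and 0.0618 ± 0.0028% and 0.0605 ± 0.0048% at ZT20 (SD, n = 6 each). With edgeR's quasi-likelihood test and Benjamini-Hochberg adjustment over all 21738 genes, no Hox gene passed an adjusted p of 0.05 in any comparison, and 0 of 36 members had groups that did not overlap in the 4 comparisons of 2 groups, where 0.506 to 1.18% of all genes had such groups.

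In *ChAT-BKO* against control at ZT8, 0 of 36 members were called, beside 0.184% of all genes, and 3 had an unadjusted p below 0.05 (*Hoxb3*, *Hoxb5* and *Hoxc13*; 4.83% of all genes had one). The smallest was that of *Hoxb5*: controls ran from 35.0 to 45.2 CPM with a median of 38.2, and *ChAT-BKO* from 38.8 to 47.1 with a median of 44.6. The ranges overlapped, and the log2 fold change was 0.17 (SE 0.07, edgeR adjusted p = 0.955). Over the 17 members of at least 10 CPM, log2 fold changes ran from −0.17 to 0.17.

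At ZT20, 0 of 36 members were called in *ChAT-BKO*, beside 0.23% of all genes, and 4 had an unadjusted p below 0.05 (*Hoxa6*, *Hoxa9*, *Hoxa10* and *Hoxc9*; 6.28% of all genes). *Hoxa6* had the smallest: controls ran from 1.03 to 2.31 CPM (median 1.44) and *ChAT-BKO* from 0.924 to 4.22 (median 2.36), so the control range lay within that of *ChAT-BKO*. Its log2 fold change was 0.75 (SE 0.29, edgeR adjusted p = 0.680). Members of at least 10 CPM ranged from −0.21 (*Hoxc9*) to 0.13 (*Hoxc6*).

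Between times in controls, 0 of 36 members were called, beside 0.115% of all genes, and 0 had an unadjusted p below 0.05 (8.25% of all genes). *Hoxd10*, of the lumbar group, had the smallest p: it ran from 9.29 to 12.7 CPM (median 12.4) at ZT8 and from 12.5 to 14.1 (median 13.5) at ZT20, with a log2 fold change of 0.18 (SE 0.09, edgeR adjusted p = 0.607). At ZT20 5 of 6 libraries were above every ZT8 library, and the ranges met between 12.5 and 12.7 CPM.

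Between times in *ChAT-BKO*, 0 of 36 were called, beside 0.285% of all genes, and 4 had an unadjusted p below 0.05 (*Hoxb9*, *Hoxc6*, *Hoxd3* and *Hoxd13*; 9.44% of all genes). *Hoxc6* came closest to a call: it ran from 18.8 to 24.0 CPM (median 19.5) at ZT8 and from 22.8 to 28.3 (median 24.1) at ZT20. Only 1 ZT8 library reached into the ZT20 range, replicate 5 at 24.0 CPM, the shallowest of all, and the other 5 were at or below 20.2. The log2 fold change was 0.31 (SE 0.08, edgeR adjusted p = 0.122). DESeq2 gave 0.30 with an adjusted p of 0.0291, the only call of a Hox gene by any method, beside 1% of all genes called by that tool in this comparison.

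*Hoxc6* in controls was 21.9 ± 1.82 CPM at ZT8 and 22.4 ± 2.86 at ZT20, a log2 fold change of 0.04. The difference between the genotypes in the change with time was 0.27 (SE 0.12, edgeR unadjusted p = 0.0272, adjusted p = 1.00). Over the 24 libraries, with group means removed, *Hoxc6* moved against total counts (r = −0.57, rho = −0.51), and 4 of the 7 shallowest libraries were *ChAT-BKO* at ZT20. The part of depth in its difference was not tested.

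For that interaction, 0 of 36 members were called, beside 0% of all genes (0 of 21738 by edgeR and 0 by DESeq2, with 849 at an unadjusted p below 0.05). For any difference among the 4 groups, 0 of 36 were called, beside 1.86% of all genes, and 7 had an unadjusted p below 0.05 (11.3% of all genes). *Hoxa9* had the smallest (adjusted p = 0.147, edgeR), with means of 14.8 and 13.2 CPM in control and *ChAT-BKO* at ZT8, and 16.3 and 14.5 at ZT20. Its log2 fold changes were −0.17 and −0.18 for *ChAT-BKO* at the 2 times.

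**Figure D3:**
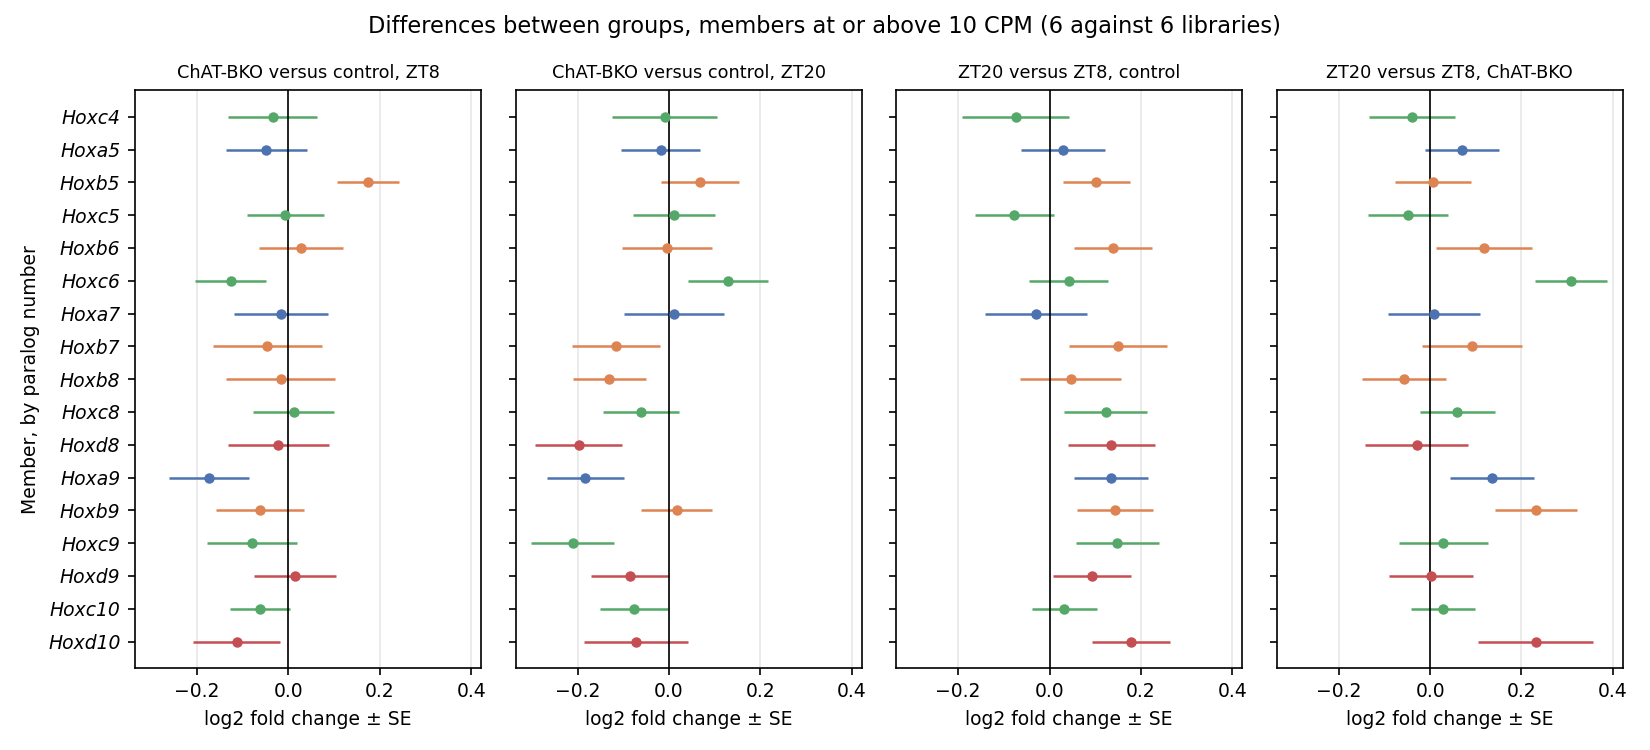
Log2 fold change with its SE (edgeR) for the 17 members of at least 10 CPM in the 4 comparisons of 2 groups, ordered by paralog number and coloured by cluster (blue Hoxa, orange Hoxb, green Hoxc, red Hoxd). Values run from −0.21 to 0.31. The largest is that of *Hoxc6* between times in ChAT-BKO.

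In direction, 26 of 36 members were higher at ZT20 in controls (median log2 fold change 0.10, all genes 0.0032) and 28 of 36 in *ChAT-BKO* (0.065, all genes 0.0029), while 11 of 36 were higher in *ChAT-BKO* at ZT8 (−0.040) and 19 of 36 at ZT20 (0.011). These comparisons share groups and the members vary together, so the counts are a description. For members of at least 10 CPM the SE was at most 0.125 in any comparison of 2 groups.

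How even the members were over libraries followed their level only in part, since *Hoxb8* at 82.6 CPM and *Hoxd11* at 3.80 CPM had like spreads. Among the 17 members of at least 10 CPM the median coefficient of variation (CV) over the 24 libraries was 12.1%, from 8.22% (*Hoxc10*) to 15.3% (*Hoxd10*). The median was 9.97% for all 8738 genes of at least 10 CPM, which include genes at far higher levels. Counting error alone accounts for 3.48% at the level of *Hoxb8* and 9.00% at that of *Hoxd10*. *Hoxb8* (14.7%), *Hoxa7* (14.8%), *Hoxb7* (15.2%) and *Hoxb6* (14.0%) were more variable than the median gene of like level (7.92 to 10.8%), while *Hoxc10* (8.22% against 9.16%), *Hoxc5* (9.56% against 12.0%), *Hoxb2* (11.8% against 16.2%) and *Hoxd11* (14.5% against 21.9%) were less so.

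**Figure D4:**
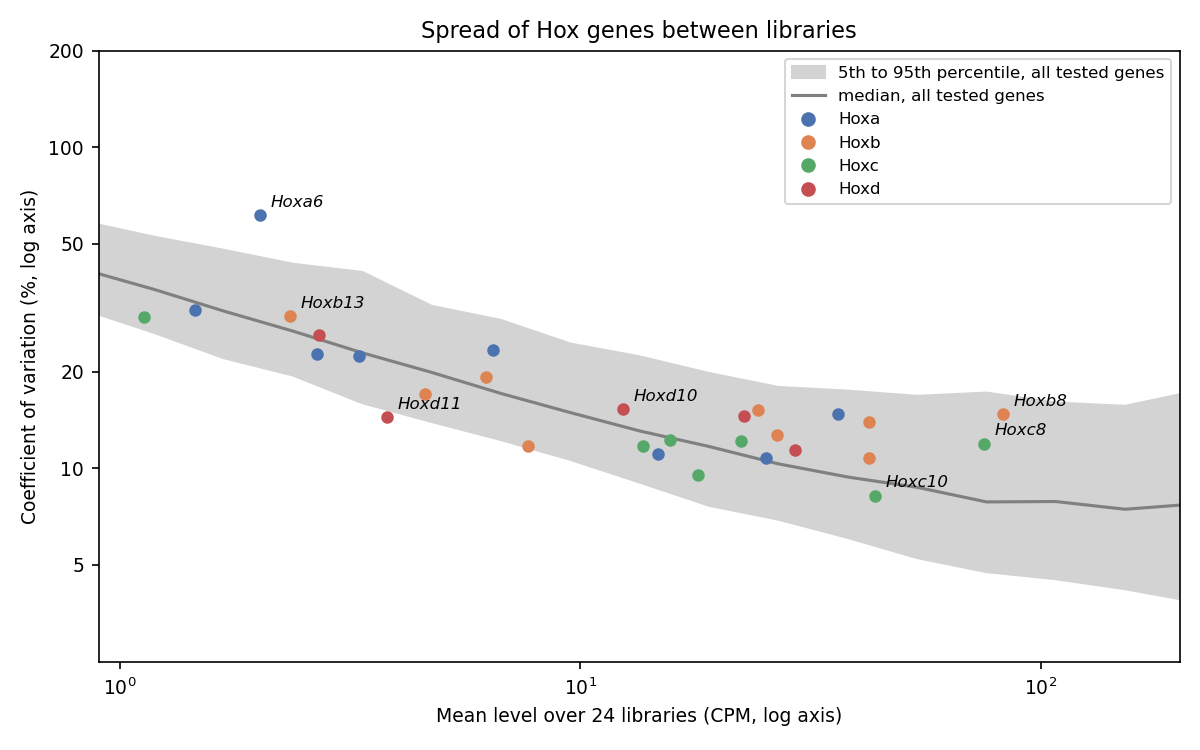
Coefficient of variation over 24 libraries (percent, log axis) against mean level (CPM, log axis) for the 29 members of at least 1 CPM, coloured by cluster. The grey line and band are the median and the 5th to 95th percentile of all tested genes by level. *Hoxa6* lies far above the band at 61.4%, and *Hoxd11* at its lower edge at 14.5%.

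*Hoxa6* stood apart. It ran from 0.486 to 5.08 CPM with a median of 1.87 and a CV of 61.4%, where genes of like level had a median CV of 28.7%, and only 22.3% is expected from counting. The whole range was present within single groups: controls at ZT8 ran from 0.523 to 5.08 CPM and *ChAT-BKO* at ZT8 from 0.486 to 4.16. Its biological CV in edgeR, the part beyond counting error, was 51.5% against 21.2% on the trend for its level. Without the 4 shallowest libraries its CV was 56.6%. Over libraries, with group means removed, it moved against the summed cholinergic markers (r = −0.48, rho = −0.42, n = 24) and with the inhibitory markers (r = 0.41, rho = 0.46). *Prph* had the largest mean and SD of the cholinergic markers (2231 ± 245 CPM, next *Ache* at 1028 ± 47.8), so it weighs most in their sum. The part of these markers in the spread of *Hoxa6* was not tested.

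The members varied together over libraries, and the order of the medians by distance in paralog number depended on the libraries used. With group means removed, the median Pearson r over the 136 pairs of the 17 members of at least 10 CPM was 0.249 (Spearman 0.240), and 96 pairs were positive, beside a median of 0.0044 for pairs of all genes at that level. Pairs of the same paralog number had a median r of 0.268, those 1 apart 0.375, those 2 or 3 apart 0.329, and those 4 or more apart −0.063. Without the 4 shallowest libraries these medians were 0.434, 0.366, 0.227 and −0.118, and so fell at each step. Some of the pairs 4 or more apart hold *Hoxc4* or *Hoxc6*, whose median r to all other members was negative (−0.13 and −0.12). The part of these 2 genes in the medians for pairs 4 or more apart was not tested. Pairs within a cluster had a median of 0.268 and pairs across clusters 0.243. These values are descriptions over 24 libraries that share their depth and scaling with every gene.

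**Figure D5:**
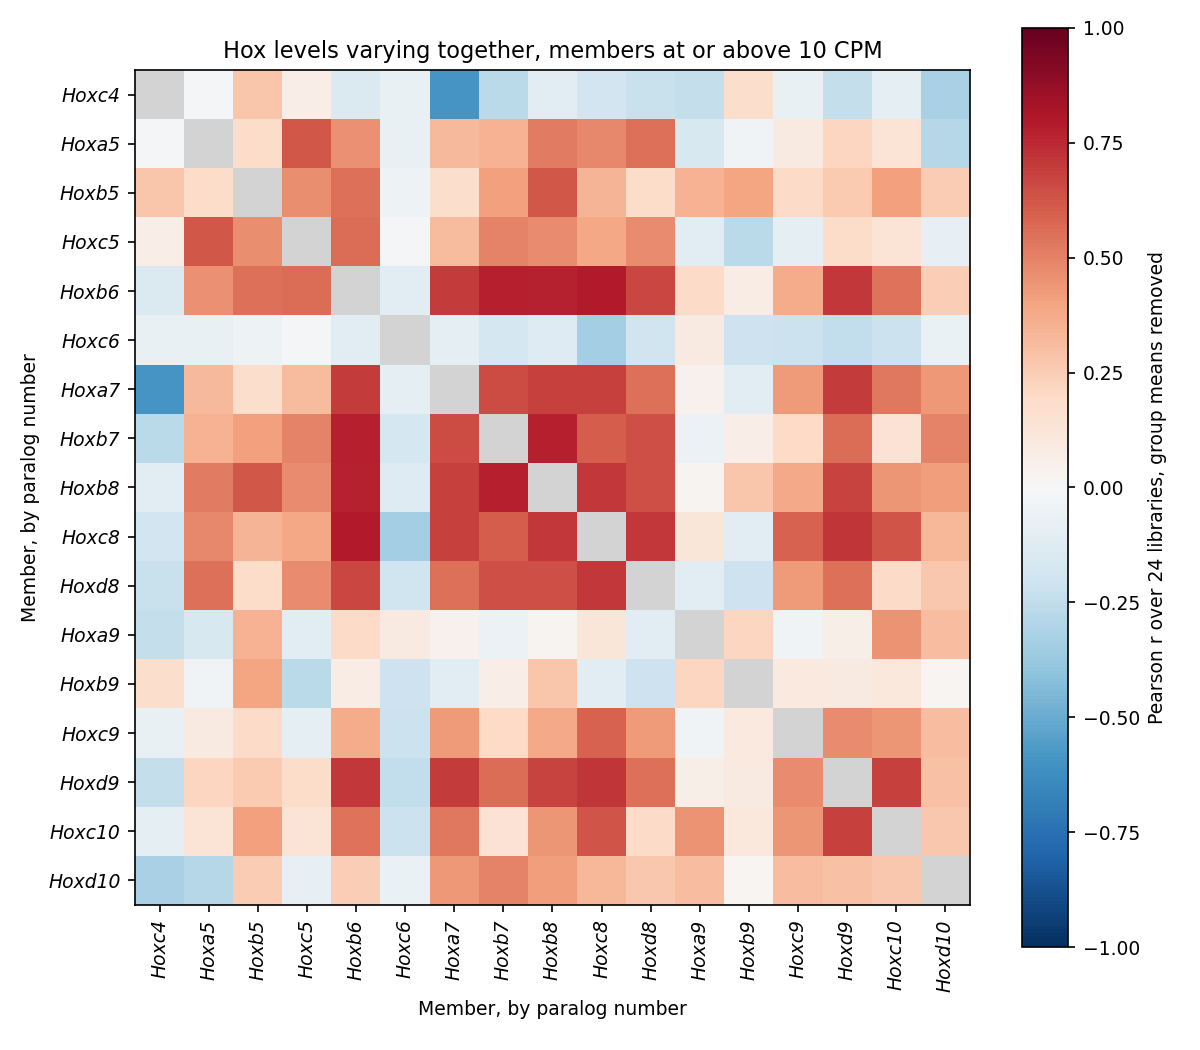
Pearson r between pairs of the 17 members of at least 10 CPM over 24 libraries with group means removed, ordered by paralog number (red positive, blue negative, grey the diagonal). The red block spans *Hoxb6*, *Hoxa7*, *Hoxb7*, *Hoxb8*, *Hoxc8*, *Hoxd8* and *Hoxd9*, and *Hoxc4* and *Hoxc6* stand outside it.

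A block of 7 members, picked out after the values were seen, held the strongest pairs: *Hoxb6*, *Hoxa7*, *Hoxb7*, *Hoxb8*, *Hoxc8*, *Hoxd8* and *Hoxd9*, which lie in all 4 clusters, had r of 0.55 to 0.79 in their 21 pairs. The highest was *Hoxb6* with *Hoxc8* (r = 0.79, rho = 0.79), on different chromosomes. *Hoxc10*, outside the block, reached 0.68 with *Hoxd9*, above the lowest pair within the block. Without the 4 shallowest libraries the lowest pair of the block was at 0.42. *Hoxc6* had a median r of −0.12 to the others and was positive in 1 of 16 pairs, and *Hoxc4* had −0.13 and was positive in 3 of 16. The lowest pair of all was *Hoxa7* with *Hoxc4* (r = −0.59, rho = −0.49). The mean of the block rose with the summed cholinergic markers, in which *Prph* weighs most (r = 0.58, rho = 0.54), and went against the inhibitory ones (r = −0.37, rho = −0.47). It also rose with the endothelial markers (r = 0.33, rho = 0.42) and went against the astrocyte ones (r = −0.36, rho = −0.36), while for total counts the value was −0.082. The part of cell composition was not tested.

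Hox partners and regulators were looked at beside them, from lists chosen with earlier results known. All 9 TALE cofactors were expressed, among them *Pbx2* (40.4 ± 2.82 CPM), *Pbx3* (23.8 ± 1.95), *Meis3* (23.5 ± 2.13) and *Meis2* (22.0 ± 2.80). Their median log2 ratio to the input was −0.43. None was called in a comparison of 2 groups, and *Pknox1* (8.25 ± 1.76 CPM) was called among the 4 groups (edgeR adjusted p = 0.0319), 1 of 9 beside 1.86% of all genes.

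Chromatin regulators that keep Hox genes silent (Polycomb) or active (trithorax) were present as well. The 17 Polycomb genes had a median log2 ratio of −0.77, with *Ezh1* (72.5 ± 3.85 CPM), the subunit of postmitotic cells, far above *Ezh2* (0.740 ± 0.273 CPM), that of dividing cells. The 9 trithorax and H3K27 demethylase genes had −0.30. None of these 26 genes was called in any of the 6 comparisons, in which 0 to 1.86% of all genes were. Of the embryonic inducers, the *Cdx* genes gave almost no counts (3 of 3 not tested) and *Rara* had 21.0 ± 2.42 CPM. Of 9 genes known downstream of Hox factors in motor neurons, 2 were above the input, beside 32.9% of all genes with at least 10 input counts. These 2 were *Ret* (549 ± 79.4 CPM, log2 ratio 1.73) and *Gfra1* (186 ± 24.6 CPM, 1.17). The median log2 ratio of the 9 was −0.92, and none was called. Of 18 non-coding genes of the clusters, 9 were tested, *Haglr* was highest (2.00 ± 0.771 CPM), and none was called.

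BMAL1 binds the E-box CACGTG with its partner CLOCK. In RefSeq promoter windows of GRCm38.p6 (250 bases before to 50 after the start), which were at hand for 22 of the 39 members in 24 windows, 5 windows held these letters (20.8%), beside 7.15% of all 32851 windows. All 5 lie in the *Hoxd* cluster. Every *Hoxd* gene had a window while most members of the other clusters had none, so the clusters cannot be compared. Each match is shown with its 30 bases on the plus strand and the letters in capitals.
Hoxd13 (chr2:74667984-74668013): cgcccccaccccCACGTGtcccggcgcagc
Hoxd11 (chr2:74682215-74682244): tctccatggcgtCACGTGacataattacca
Hoxd10 (chr2:74691806-74691835): cgggctggggaaCACGTGacctgcaaggag
Hoxd4 (chr2:74721964-74721993): gctatttataagCACGTGattccaataaac
Hoxd1 (chr2:74762947-74762976): gctggctggcgcCACGTGgctgccgccgcc

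None of *Hoxd1*, *Hoxd4*, *Hoxd10*, *Hoxd11* and *Hoxd13* was called in any comparison, beside 0 to 1.86% of all genes (edgeR). *Hoxd1* (0.223 CPM), *Hoxd4* (0.756 CPM) and *Hoxd13* (10 counts over all 24 libraries) were near the floor, so the lack of a call says little about them. The core letters of homeodomain sites, TAAT on either strand, were in 19 of the 24 windows (79.2%) beside 58% of all windows. A match of letters is a description of the window and says nothing about binding.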

How the data were processed

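RNA from HA-tagged ribosomes of ChAT-Cre cells was immunoprecipitated from whole spinal cords and sequenced as stranded mRNA libraries. The deposited values are expected counts per gene, which the authors made with STAR 2.7.5 and RSEM on mm10 and an Ensembl annotation; 6.11% of them were not whole and counts were rounded for tests. The 21738 of 50559 genes that reached 10 counts in the 24 immunoprecipitates together were tested with edgeR 4.0.16 (TMM, quasi-likelihood F test, Benjamini-Hochberg adjustment, threshold 0.05) in R 4.3.3, each comparison of 2 groups on its own 12 libraries. CPM divide expected counts by TMM-scaled totals (the input on its own total), and levels between genes are CPM per kb of the main transcript in GENCODE M21 (same build). The tests were checked on simulated counts. Correlations used log2 CPM with a prior count of 2, group means removed. Intervals (95% Poisson) and floors (3 counts) cover counting error only.

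The members were taken by symbol alone, and the lists were chosen with earlier results of these data known. Named with values were members of at least 1 CPM, those with the smallest p in each comparison, those with the highest and lowest input ratio, and the cluster ends; homeobox bases stand in for protein sequences, which were not used here, and a few genes and homeobox sequences are not reported here. Replicate numbers were not used as pairs in the main fits. Deviations of same-numbered libraries correlated from −0.197 to 0.356, over 0.1 in 7 of 24 pairs. Weak correlations cannot show that no pairing or shared batch exists. Alternatives were DESeq2 1.42.0, limma 3.58.1, other scalings and filters, a replicate block, and leaving out libraries.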

Additional observations from a re-analysis of the deposited data

Results flagged for a closer look

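In groups of 6 libraries, a lowest or highest value was looked at again where its gap to the next passed Dixon's 95% limit, for the 29 members of at least 1 CPM and the Hox share of counts in each of the 4 groups. This gave 7 values among 120 groups, and chance flags about 1 group in 20. Within ChAT-BKO at ZT8, *Hoxa10* was high in replicate 5 (8.55 CPM, others 4.55 to 5.72), as was *Hoxc6* in the same replicate (24.0 CPM, others 18.8 to 20.2), and *Hoxb3* was high in replicate 6 (5.68 CPM, others 4.43 to 4.87). *Hoxb9* was high in ChAT-BKO at ZT20 replicate 2 (34.1 CPM, others 26.5 to 28.9). In controls, *Hoxa11* was high at ZT20 in replicate 3 (2.30 CPM, others 0.961 to 1.40), *Hoxc10* was low at ZT8 in replicate 5 (38.2 CPM, others 43.6 to 46.7), and *Hoxd10* was low at ZT8 in replicate 6 (9.29 CPM, others 12.0 to 12.7). No difference of the ChAT-BKO effect between times passed the threshold for a Hox gene.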

How the results depend on the processing

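No Hox gene was called in any of the 6 comparisons with DESeq2 size factors, no filter, a stricter filter, limma voom with quality weights, a threshold of 0.01, or all 24 libraries in the fit, and leaving out each library in turn gave from 0 to 0 calls. Over all genes, leaving out 1 library gave 19 to 42 calls at ZT8 and 29 to 69 at ZT20 for ChAT-BKO, 11 to 28 and 33 to 56 between times in controls and in ChAT-BKO, 0 to 0 for the interaction and 322 to 446 for any difference. These counts moved by over 1.5 times for ChAT-BKO at ZT8 without control replicate 4 (25) or ChAT-BKO replicates 1 (23) or 3 (19), and for time in ChAT-BKO without its ZT8 replicates 1 (33), 3 (37) or 5 (36). Likewise 30 genes were called at ZT20 without ChAT-BKO replicate 1 and 29 without control replicate 3 or 4. Between times in controls, 12, 14 and 16 were called without ZT8 replicates 1, 4 and 6, and 12, 12, 11, 14 and 11 without ZT20 replicates 1, 2, 3, 4 and 6. With the replicate block the count of Hox calls was 0 in every comparison. DESeq2 called 1, *Hoxc6* between times in ChAT-BKO (adjusted p = 0.0291, against 0.0834 to 0.292 in the other fits); the cause was not tested. Over all genes, DESeq2 called 70, 93, 127, 218 and 750 genes where edgeR called 40, 50, 25, 62 and 405 (ChAT-BKO at ZT8 and ZT20, times in controls and ChAT-BKO, any difference), the replicate block 69 at ZT8 and 85 between times in controls, and the fit of all 24 libraries 140 between times in ChAT-BKO. Under TMM over input and immunoprecipitates together the median log2 ratio of the members was −0.19, and *Hoxa5* (0.038), *Hoxb4* (0.026), *Hoxb6* (0.16), *Hoxc6* (0.050), *Hoxc10* (0.40) and *Hoxd11* (0.22) turned from below to above the input, since that scaling adds a nearly constant shift. With union exon length paralogs 4 to 8 held 70.0% and *Hoxc8* 26.6 CPM per kb (33.8 with the longest transcript). Without the 4 shallowest libraries the median CV was 11.0% and the median r 0.239, and the medians of r fell at each step of distance in paralog number. A single input library without replicates limits every ratio to it, and members under 1 CPM are near the floor.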
